A study of Rattus norvegicus with 16 samples.

Results

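The livers described here are the 8 libraries of casein-fed rats among the 16 of the series, divided by the level of a single transcript, Lbp, which encodes the lipopolysaccharide-binding protein that hepatocytes secrete. A casein liver with a deposited Lbp value under 4000 was called Lbp-low, which gave 3 livers (CAS 4, CAS 6 and CAS 7), and the other 5 (CAS 1, CAS 2, CAS 3, CAS 5 and CAS 8) were called Lbp-high. The animals were male obese Zucker rats, which lack a working leptin receptor and grow obese with a fatty liver, and they were bought at 6 weeks of age, acclimated for 1 week and then fed either casein (CAS) or soy protein isolate (SPI) as the dietary protein for 16 weeks. Each library came from 1 rat, so the Lbp-high and Lbp-low livers had the same strain, sex, diet and feeding time, and no label separates them. The 8 SPI livers had no part in the rule and are given for reference. All values are size-factor normalized counts, that is read counts per gene divided by 1 factor per library, and differences are those of mean log2(value + 1), Lbp-high minus Lbp-low, with the standard error (SE) over livers.

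The acute phase response is the change in secreted proteins that hepatocytes make during infection or tissue injury, when interleukin 6 acts through STAT3 and interleukin 1 through NF-kB and C/EBP factors. The lipopolysaccharide-binding protein is a product of that response, which hands bacterial lipopolysaccharide to CD14 and the Toll-like receptor TLR4 on macrophages. Lipocalin 2, the product of Lcn2, is another, and binds the siderophores with which bacteria take up iron. In bulk liver most of the RNA is that of hepatocytes, with smaller parts from Kupffer cells (the resident macrophages), sinusoidal endothelial cells, stellate cells and blood, and for a transcript of such cells fewer cells and less RNA per cell cannot be told apart.

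Lbp, by which the livers were divided, had values of 5346, 8486, 8319, 9302 and 6221 in Lbp-high livers CAS 1, CAS 2, CAS 3, CAS 5 and CAS 8, and of 2494, 2572 and 2476 in Lbp-low livers CAS 4, CAS 6 and CAS 7, and this order of livers is kept below. The livers nearest to the threshold were CAS 1, at 5346, and CAS 6, at 2572. SPI livers spanned 1942 to 3387 (median 2218), so the Lbp-low livers lay inside the SPI range and no SPI liver reached the threshold. Since the groups were made from these libraries, each gene compared between them counts as used by the division, and the comparison is given as a description without p-values.

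**Figure D1:**
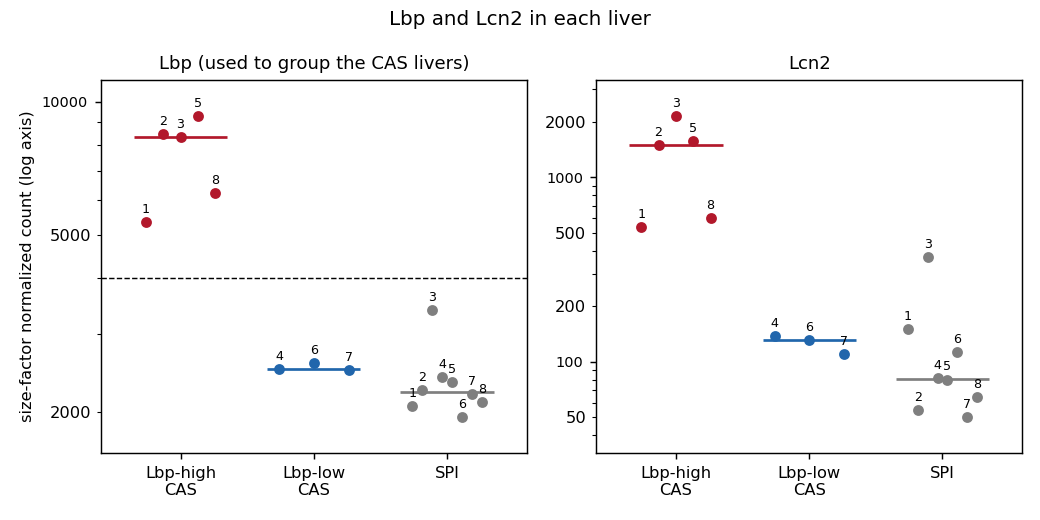
Size-factor normalized counts (log axis) of Lbp, left, and Lcn2, right, in each liver, with Lbp-high CAS, Lbp-low CAS and SPI livers from left to right, the replicate number beside each point, a line at each group's median and a dashed line at the Lbp threshold of 4000. Lcn2 was 537 to 2147 in Lbp-high livers, 110 to 137 in Lbp-low livers and 50.0 to 370 in SPI livers.

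Lcn2 was 537, 1500.1, 2147, 1561 and 600.2 in Lbp-high livers, against 137, 132 and 109.8 in Lbp-low livers, and 50.0 to 369.6 (median 80.8) in SPI livers. The CAS groups did not overlap, and the lowest Lbp-high liver was above every SPI liver, while the Lbp-low livers lay inside the SPI range. The difference was 3.12 (SE 0.41), and it rested on 624 to 2280 reads per library in Lbp-high livers and 108 to 145 in Lbp-low livers. The 250 bases before the start of Lcn2 (RefSeq, GRCr8, chr3:36081781-36082030, minus strand) are shown because Lcn2 had the largest positive difference of the genes with a mean of at least 50, with the only match to the C/EBP pattern TTNNGCAA, read on either strand, in capitals.
Lcn2: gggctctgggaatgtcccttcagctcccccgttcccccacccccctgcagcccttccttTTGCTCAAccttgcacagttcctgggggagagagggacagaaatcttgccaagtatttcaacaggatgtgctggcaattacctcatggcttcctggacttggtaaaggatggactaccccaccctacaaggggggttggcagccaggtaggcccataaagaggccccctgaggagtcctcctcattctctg
This pattern occurred in 9.22% of the 33469 promoter windows of the same length, and the NF-kB pattern GGNNTTTCC, found in 5.19% of them, did not occur in the Lcn2 window. A site that departs from these letters would be missed, so a pattern not found does not show that a window lacks a site.

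Over all genes, 8103 of the 9645 in the table reached 10 in 4 or more of the 8 CAS livers and were compared. In 359 genes (4.43%) every Lbp-high liver lay above every Lbp-low liver, and in 302 (3.73%) every one lay below. With a difference of at least 1.5-fold as well, 236 genes (2.91%) were higher and 127 (1.57%) were lower in Lbp-high livers, and the median difference of all genes compared was -0.01. Nothing is read from these shares, which the division itself can raise. Of the 236 higher genes, 20 had no Lbp-low liver at 10 or more and passed the filter only through the Lbp-high livers, whereas a gene present only in the 3 Lbp-low livers could not pass, and without the filter the counts were 261 and 148. Genes with only a locus number for a name were 26 of the 236 higher genes (11.0%), 39 of the 127 lower genes (30.7%) and 1200 of all those compared (14.8%).

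The libraries held 17602859 to 21632979 reads in Lbp-high livers, 17602306 to 19125056 in Lbp-low livers and 14901365 to 21517766 in SPI livers. The first principal component of the CAS livers, 24.9% of the variance, set CAS 3 (55.0) against CAS 8 (-40.7), both Lbp-high, with the others between -9.82 and 9.57, so the largest axis of difference was not that between the groups. The second, 22.0%, placed the Lbp-low livers at 18.2 to 31.2 and the Lbp-high livers at -43.7 to 6.93. Lane numbers in the library names put CAS 2 (Lbp-high) and CAS 7 (Lbp-low) on the same lane number and each other CAS library on its own, so lane and group cannot be told apart beyond that pair. The SPI libraries that share the lane numbers of the Lbp-high livers had Lbp values of 2055 to 3387, and those that share the numbers of the Lbp-low livers had 1942 to 2387. Albumin, the main hepatocyte product, was 4815303, 3165045, 3164545, 2790904 and 3393381 in Lbp-high livers and 3726246, 3608422 and 3234415 in Lbp-low livers. A value of 0 allows up to 3 reads, which is 2.42 to 4.12 normalized counts depending on the library, and this covers counting error only.

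**Figure D2:**
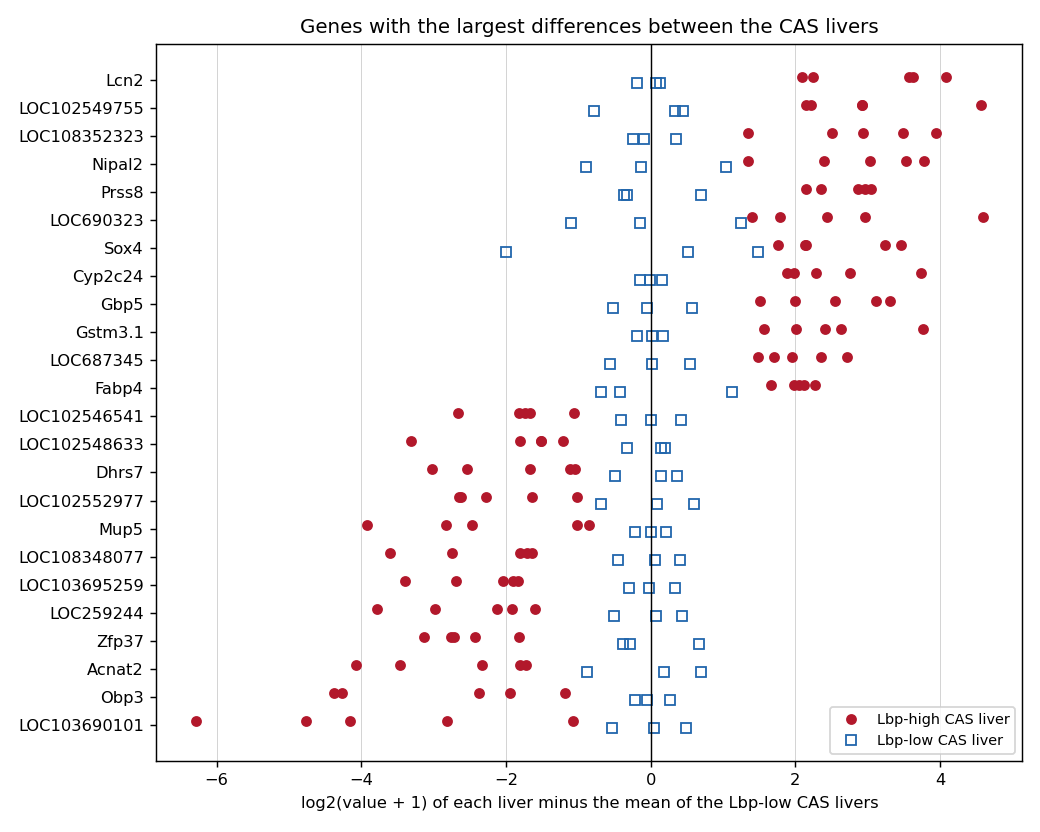
The 12 largest positive and 12 largest negative differences among genes whose groups do not overlap and whose mean over the CAS livers is at least 50, each liver shown as log2(value + 1) minus the mean of the Lbp-low livers (x axis), with Lbp-high livers as filled circles and Lbp-low livers as open squares. The differences range from 3.12 for Lcn2 to -3.82 for LOC103690101, and in Obp3 and LOC103690101 the Lbp-high livers are spread more widely than the Lbp-low livers.

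Among the genes with the largest positive differences beside Lcn2, Prss8, which encodes the membrane serine protease prostasin, was 678, 719, 631, 444 and 383 in Lbp-high livers, against 66.6, 68.2 and 139 in Lbp-low livers, a difference of 2.68 (SE 0.39). SPI livers had 0 to 29.7 (median 12.9), below the 3 Lbp-low livers in every case. Cyp2c24, a cytochrome P450, was 178, 235, 644, 325 and 189 in Lbp-high livers and 52.6, 47.3 and 42.7 in Lbp-low livers (2.53, SE 0.35). In SPI livers Cyp2c24 was 0 to 48.0 (median 1.03), and the highest of them lay inside the Lbp-low range. That median is under the 2.75 to 4.12 that a 0 allows in SPI livers. Gstm3.1, which by its name belongs to the glutathione S-transferases, was 738, 557, 1887, 863 and 412 in Lbp-high livers and 156, 140.0 and 121 in Lbp-low livers (2.47, SE 0.38), with CAS 3 the highest in both genes. For each of these 3 genes the SPI median was below every Lbp-low liver. Both enzymes have close relatives in the genome, among which reads may be shared.

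Sox4, a transcription factor of progenitor cells, was 175, 150.2, 68.7, 69.7 and 52.9 in Lbp-high livers and 2.98, 21.8 and 43.7 in Lbp-low livers (2.55, SE 1.09), where CAS 7 came within 10 of the lowest Lbp-high liver. Its CAS 4 value lay within the 2.42 to 3.05 that a 0 allows in CAS livers, and the difference ran from 1.55 to 3.29 over the alternatives. Nipal2, whose product resembles magnesium transporters, was 27.2 to 152 in Lbp-high livers and 4.97 to 21.8 in Lbp-low livers (2.82, SE 0.71). LOC690323, listed as Myo15b in the RefSeq table, was 51.3 to 476 in Lbp-high livers and 8.18 to 45.8 in Lbp-low livers (2.64, SE 0.88), with CAS 2 the highest. The loci LOC102549755, LOC108352323 and LOC687345, of which the first pair is annotated as long non-coding RNAs, differed by 2.95 (SE 0.59), 2.84 (SE 0.48) and 2.04 (SE 0.39), and LOC108352323 was at 38.8 to 239 in Lbp-high livers, 12.2 to 18.9 in Lbp-low livers and 0 to 7.01 in SPI livers. LOC102549755 was 34.4 to 188 in Lbp-high livers and 3.64 to 9.93 in Lbp-low livers. No Lbp-low liver reached 10 in LOC102549755, so it passed the filter only through the Lbp-high livers. Fabp4, the fatty acid-binding protein of adipocytes and macrophages, was 342, 361, 419, 274 and 378 in Lbp-high livers and 189, 63.6 and 52.9 in Lbp-low livers (2.02, SE 0.58), of which CAS 4 was the highest.

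The label of the groups as high and low acute phase was set beside 35 acute phase proteins other than Lbp, Lcn2 among them, in the same livers. Most of the 35 overlapped, so the groups are called by Lbp. Of the 35, 6 lay above without overlap (among them Lcn2, Hp, Serpina3n, Hpx and Vnn1), against 4.43% of all genes compared. In the other direction 1 lay below (Fga, a fibrinogen chain), against 3.73% of all genes. The other 28 overlapped, and the median difference of the list was 0.06, against -0.01 over all genes. The same shares over all genes are those to set beside the list counts that follow. Hpx, hemopexin, which binds free heme, was 260279, 294137, 348676, 298738 and 336147 in Lbp-high livers and 221020.0, 200525 and 233631 in Lbp-low livers, a difference of 0.49 (SE 0.10). Orm1, the alpha-1 acid glycoprotein, was 18624, 29883, 47111, 42065 and 36236 in Lbp-high livers and 18939, 20089 and 21936 in Lbp-low livers (0.71, SE 0.24), and overlapped because CAS 1 lay below the Lbp-low livers. Vnn1, a pantetheinase, was 828, 1406, 1428, 941 and 995 in Lbp-high livers against 700.3, 592 and 498 in Lbp-low livers (0.89, SE 0.21), and Mt1, a metallothionein, overlapped (0.50, SE 0.45). The summed level of the 38 listed proteins in the table was 1697539 to 2038338 in Lbp-high livers and 1562318 to 1754435 in Lbp-low livers. Leaving out 1 CAS liver moved the list's median between -0.01 and 0.13, so its sign was not fixed.

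Of 21 proteins that fall during inflammation in liver, 4 lay below without overlap (Rbp4, Pon1, Fetub and Mup5) and 1 above (Tf, transferrin), with a median of -0.21 that kept its sign under every alternative. Fetub, a fetuin, was 188, 265, 217, 328 and 197 in Lbp-high livers and 588, 392 and 375 in Lbp-low livers (-0.92, SE 0.25). Igfals, the carrier subunit of the circulating IGF complex, was 5813, 5129, 4675, 3322 and 3838 in Lbp-high livers and 5888, 5912 and 5719 in Lbp-low livers (-0.39, SE 0.15), and CAS 1 alone lay among the Lbp-low livers. Of the 29 genes of interleukin 6 and interleukin 1 signalling, 1 lay above (Cebpd, a C/EBP factor) and 2 below (Tyk2, a Janus kinase, and Chuk, a subunit of the IKK complex), with a median of 0.06. Cebpd was 62.0, 83.2, 53.7, 78.2 and 69.4 in Lbp-high livers and 50.7, 49.1 and 28.5 in Lbp-low livers (0.71, SE 0.29). Nfkbia, the inhibitor of NF-kB that NF-kB itself induces, was 492, 806, 524, 574 and 661 in Lbp-high livers and 362, 534 and 431 in Lbp-low livers and overlapped (0.46, SE 0.21). The median of this list changed sign without CAS 6 (-0.038), and also without CAS 2 and CAS 8.

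Of 24 NF-kB targets and genes of leukocyte recruitment, 4 lay above without overlap (Icam1, Ccl2, Cxcl16 and Cd47) and 1 below (Gadd45g), with a median of 0.23 (0.13 without CAS 5, 0.13 without CAS 6, 0.40 without CAS 7 and 0.35 under quantile normalization). Cxcl16, a chemokine that attracts T cells and is held on the membrane of macrophages, was 194, 265, 265, 212 and 204 in Lbp-high livers, against 81.5, 87.3 and 69.2 in Lbp-low livers, and 19.2 to 104 (median 78.4) in SPI livers. The values of Cxcl16 were tight within each group, with a difference of 1.51 (SE 0.14). The interferon-induced chemokine Cxcl9, at 204, 335, 427, 285 and 166 in Lbp-high livers and 158, 175 and 198 in Lbp-low livers (0.60, SE 0.26), and the chemokine Ccl5 (0.75, SE 0.39) overlapped.

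Of 37 interferon-response genes, 8 lay above without overlap (Gbp2, Gbp5, Ifi47, Ddx58, Tapbp, Psmb10, Samd9l and Sp100) and 1 below (Bst2), with a median of 0.30. A positive difference was found in 31 of the 37, against 3948 of all 8103 genes compared. The guanylate-binding proteins are GTPases that interferon gamma induces and that act against intracellular microbes. Gbp5 was 176, 257, 435, 382 and 125 in Lbp-high livers, against 29.8, 64.5 and 41.7 in Lbp-low livers (2.49, SE 0.46), and 17.4 to 52.0 (median 40.6) in SPI livers. Gbp2 was 304, 455, 407, 466 and 427 in Lbp-high livers and 167, 148 and 153 in Lbp-low livers (1.38, SE 0.12), and Samd9l, an antiviral factor, was 255 to 549.8 in Lbp-high livers and 155 to 224 in Lbp-low livers (0.90, SE 0.25). Irf3, the transcription factor that drives type I interferon, lay the other way at 28.4 to 74.8 in Lbp-high livers and 63.1 to 81.5 in Lbp-low livers with overlap (-0.77, SE 0.26). The bases before the start of Gbp5 (RefSeq, GRCr8, chr2:233910749-233910998, plus strand) are shown because this gene had the largest difference of the list, with capitals on matches to GGNNTTTCC (NF-kB) and to TTCNNTTTC (the interferon-stimulated response element), read on either strand.
Gbp5: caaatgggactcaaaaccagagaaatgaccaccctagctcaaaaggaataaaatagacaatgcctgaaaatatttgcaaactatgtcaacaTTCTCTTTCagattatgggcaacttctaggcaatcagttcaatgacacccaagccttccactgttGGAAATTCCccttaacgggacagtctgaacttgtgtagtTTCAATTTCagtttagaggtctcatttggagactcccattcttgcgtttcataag
The second pattern matched at 2 places, with no overlap between matches, and occurred in 8.12% of all promoter windows. The C/EBP pattern and the STAT pattern TTCNNNGAA were not in this window, and 7.67% of all windows held the last. A match of letters is no evidence that a factor binds there, and the lack of a match is none that it does not.

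Some immune cell genes lay above in Lbp-high livers and most overlapped. The 9 genes of MHC class II presentation all had positive differences, with a median of 0.67, and 3 lay above without overlap (RT1-Da, RT1-Ba and Lgmn). Over all 8103 genes compared, 3948 had a positive difference. RT1-Da, a class II alpha chain, was 639, 1225, 1227, 1512 and 499 in Lbp-high livers and 484, 315 and 364 in Lbp-low livers (1.29, SE 0.36). RT1-Ba was 513 to 1568 in Lbp-high livers and 342 to 485 in Lbp-low livers (1.10, SE 0.36), and its partner RT1-Bb and the invariant chain Cd74 overlapped at 0.86 (SE 0.36) and 0.73 (SE 0.40). In CAS 1 and CAS 8 the class II genes were close to the Lbp-low livers, and in CAS 2, CAS 3 and CAS 5 they were not. SPI livers had 273 to 414 (median 326) for RT1-Da.

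Of the 30 macrophage and Kupffer cell genes, 8 lay above without overlap (Cd5l, Cybb, Fcgr1a, Lgals3, Gpnmb, Fabp4, Mmp12 and Csf2rb) and none below, with a median of 0.41 (0.23 without CAS 7). Gpnmb, a glycoprotein of lipid-laden macrophages, was 732, 2069, 1156, 1866 and 1011 in Lbp-high livers, against 576, 698 and 276 in Lbp-low livers (1.40, SE 0.49), and 360.4 to 534 (median 451) in SPI livers. Lyz2, lysozyme, was 279.6, 220.4, 255, 323 and 90.1 in Lbp-high livers and 108, 75.4 and 56.9 in Lbp-low livers (1.46, SE 0.42), overlapping through CAS 8 alone, and Lpl, lipoprotein lipase, was 60.4 to 188 in Lbp-high livers and 30.0 to 63.6 in Lbp-low livers with overlap (1.26, SE 0.41). The 6 defining markers of Kupffer cells compared all overlapped, while Cd5l, which Kupffer cells also express, did not. Clec4f, the lectin of Kupffer cells, was 3363, 4030.3, 3329.6, 3158 and 4029 in Lbp-high livers and 3977, 3568 and 2606 in Lbp-low livers (0.10, SE 0.20), and the differences of Cd68, Marco, Vsig4, C1qa and Cd163 were 0.06 (SE 0.21), 0.08 (SE 0.43), -0.26 (SE 0.13), -0.02 (SE 0.15) and -0.41 (SE 0.44). None of these 6 was at 0 in any CAS liver, and the 7th marker of the set, Csf1r, was not analysed here. The summed level of the 40 listed genes in the table was 17152 to 20606 in Lbp-high livers and 12021 to 16543 in Lbp-low livers, and their part in the differences of other immune genes was not tested.

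**Figure D3:**
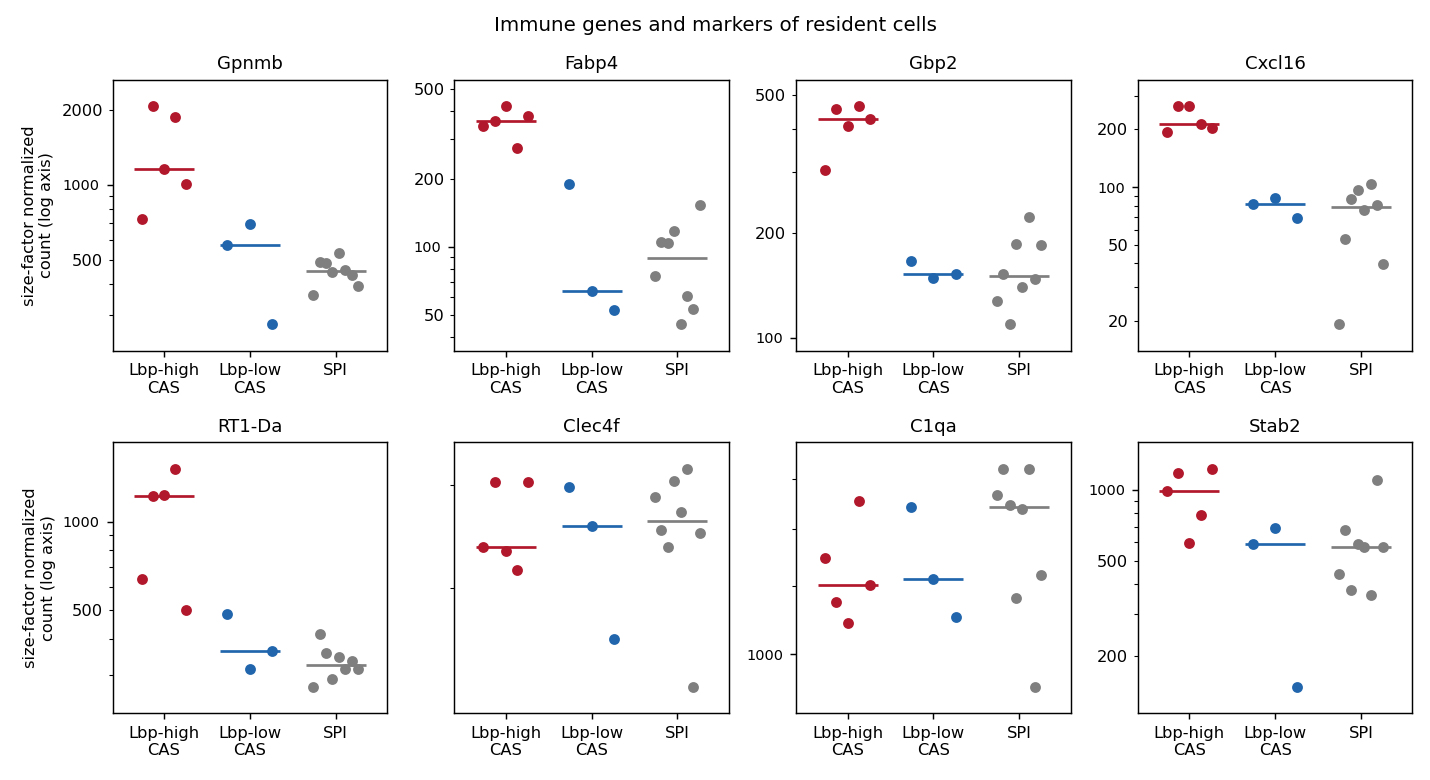
Size-factor normalized counts (log axes) of 8 genes of immune or resident cells, with Lbp-high CAS, Lbp-low CAS and SPI livers from left to right and a line at each group's median. Gpnmb, Fabp4, Gbp2, Cxcl16 and RT1-Da do not overlap between the CAS groups, while Clec4f, C1qa and Stab2 do.

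All 3 neutrophil-associated genes compared (Mmp9, Itgb2 and Selplg, which other leukocytes also express) lay above without overlap, with a median of 0.97, and the 4 defining neutrophil markers were not analysed here. Itgb2, the shared beta chain of the leukocyte integrins, was 337, 544, 293, 512 and 317 in Lbp-high livers and 204, 265 and 143 in Lbp-low livers (0.97, SE 0.31). Of 9 lymphocyte genes, Cd2 and Il2rg lay above, with a median of 0.50 (0.76 without CAS 8), and Gzma, a granzyme, overlapped (0.52, SE 0.38). The defining markers Cd3e, Cd79b and Cd8a were not analysed here.

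Genes of the other non-parenchymal cells were also measured. Of 20 endothelial genes none lay apart, though 19 had a positive difference and the median was 0.49, and 0.12 without CAS 7. Positive differences were found in 3948 of all 8103 genes compared. Stab2, the hyaluronan receptor of sinusoidal endothelium, was 989, 1173, 595, 779 and 1227 in Lbp-high livers and 592, 687 and 147 in Lbp-low livers, and Kdr, the VEGF receptor, was 953, 889.7, 784, 766 and 1019 in Lbp-high livers and 557, 787 and 222 in Lbp-low livers, so CAS 7 was the lowest liver in both. Of 31 stellate cell and matrix genes 5 lay above (Acta2, Col4a1, Col4a2, Sparc and Lamc1), with a median of 0.27 (0.17 without CAS 2). Acta2, the actin of activated stellate and smooth muscle cells, was 214, 279, 184, 217 and 204 in Lbp-high livers and 136, 133 and 113 in Lbp-low livers (0.77, SE 0.13), and the basement membrane collagen Col4a1 was 774, 975, 1122, 1203 and 1004 in Lbp-high livers and 573, 635 and 572 in Lbp-low livers (0.76, SE 0.12). The fibrillar collagens Col1a1 (0.00, SE 0.88) and Col3a1 (0.27, SE 0.19) overlapped. The 10 blood cell genes had a median of 0.56 with none apart, which was 0.23, 1.24, 0.29 and 0.12 without CAS 1, CAS 4, CAS 6 and CAS 7 in turn. Hbb, a globin chain, was 13630.3, 2710.3, 5133, 6201 and 7882 in Lbp-high livers and 11535, 2337 and 2137 in Lbp-low livers, highest in CAS 1 and CAS 4. The 2 bile duct genes compared overlapped, with a median of 0.45, and of 0.73, 0.28 and 0.096 without CAS 4, CAS 5 and CAS 7 in turn. The share of each cell type in the differences was not tested.

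Among the 12 genes with the largest negative differences were those for alpha-2u globulins, which are lipocalins that the liver of adult male rats secretes into the urine and whose synthesis depends on androgen and growth hormone. LOC259244, listed as Mup4l4 in the RefSeq table, was 6884, 3787, 7904, 9892 and 2178 in Lbp-high livers, against 21006, 31479 and 40392 in Lbp-low livers (-2.48, SE 0.48), and 32983 to 77655 (median 46868) in SPI livers. Mup5 was 2605, 2022, 7938, 7124 and 946 in Lbp-high livers and 12402, 14409 and 16714 in Lbp-low livers (-2.22, SE 0.59). Obp3, named as an odorant-binding lipocalin of the same family, was 32.7, 8.07, 44.3, 75.6 and 7.44 in Lbp-high livers and 150.0, 167 and 209 in Lbp-low livers (-2.83, SE 0.65), and 201 to 333 (median 253) in SPI livers. In each of the 3 genes CAS 8 was the lowest liver and no Lbp-high liver reached a Lbp-low liver. Mup4, at 0, 5.65, 0, 34.8 and 4.96 in Lbp-high livers and 43.7, 129 and 18.3 in Lbp-low livers, overlapped through CAS 5, and CAS 1 and CAS 3 were at 0. The RefSeq table for GRCr8 places these loci beside each other on chromosome 5, in a run of 35 genes from Obp3 to Zfp37 that holds 15 entries of the family, 8 of them pseudogenes, and 5 entries named as copies of Zfp37.

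Zfp37, a zinc finger gene at the end of that run, was 56.8, 71.9, 58.4, 109.6 and 43.8 in Lbp-high livers, against 322, 622 and 299 in Lbp-low livers (-2.57, SE 0.40), and 338 to 1209 (median 586) in SPI livers. Because near-identical copies lie side by side, reads may have been assigned among them, and the values of the family and of Zfp37 are uncertain for any single locus. The 250 bases before the start are shown for the 3 family members among the largest differences, to let them be compared, with the C/EBP pattern in capitals (RefSeq, GRCr8, minus strand, chr5:79640676-79640925, chr5:79999696-79999945 and chr5:79707808-79708057 in this order).
Obp3: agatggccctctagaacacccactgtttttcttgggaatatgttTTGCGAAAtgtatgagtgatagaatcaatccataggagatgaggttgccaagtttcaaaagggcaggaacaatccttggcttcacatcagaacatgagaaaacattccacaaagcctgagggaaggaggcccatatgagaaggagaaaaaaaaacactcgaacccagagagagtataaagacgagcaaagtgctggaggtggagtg
Mup5: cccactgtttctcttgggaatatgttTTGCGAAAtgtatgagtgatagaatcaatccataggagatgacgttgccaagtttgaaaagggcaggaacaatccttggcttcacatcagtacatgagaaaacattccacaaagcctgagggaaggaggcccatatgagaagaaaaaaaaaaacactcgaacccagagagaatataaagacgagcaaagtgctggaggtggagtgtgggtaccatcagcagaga
LOC259244: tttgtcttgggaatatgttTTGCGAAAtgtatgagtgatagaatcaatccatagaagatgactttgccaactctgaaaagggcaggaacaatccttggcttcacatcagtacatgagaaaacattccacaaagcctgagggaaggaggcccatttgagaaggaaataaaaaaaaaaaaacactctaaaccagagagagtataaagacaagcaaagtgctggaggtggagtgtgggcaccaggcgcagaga
The same 8 letters, TTGCGAAA, stand in all 3 windows, 206, 224 and 231 bases before the start. Aligned end to end, Obp3 and Mup5 were identical at 83.6% of positions, Obp3 and Mup4l4 at 77.5% and Mup5 and Mup4l4 at 89.1%, so a shared pattern in them is a shared sequence. Of the 12 genes with the largest negative differences 7 had a promoter in the table, and beside the C/EBP pattern of these 3, LOC102548633 held the STAT and interferon patterns and Dhrs7 the NF-kB pattern. Of the 12 with the largest positive differences 6 had one, and Lcn2 held the C/EBP pattern and Gbp5 those of NF-kB and the interferon response.

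**Figure D4:**
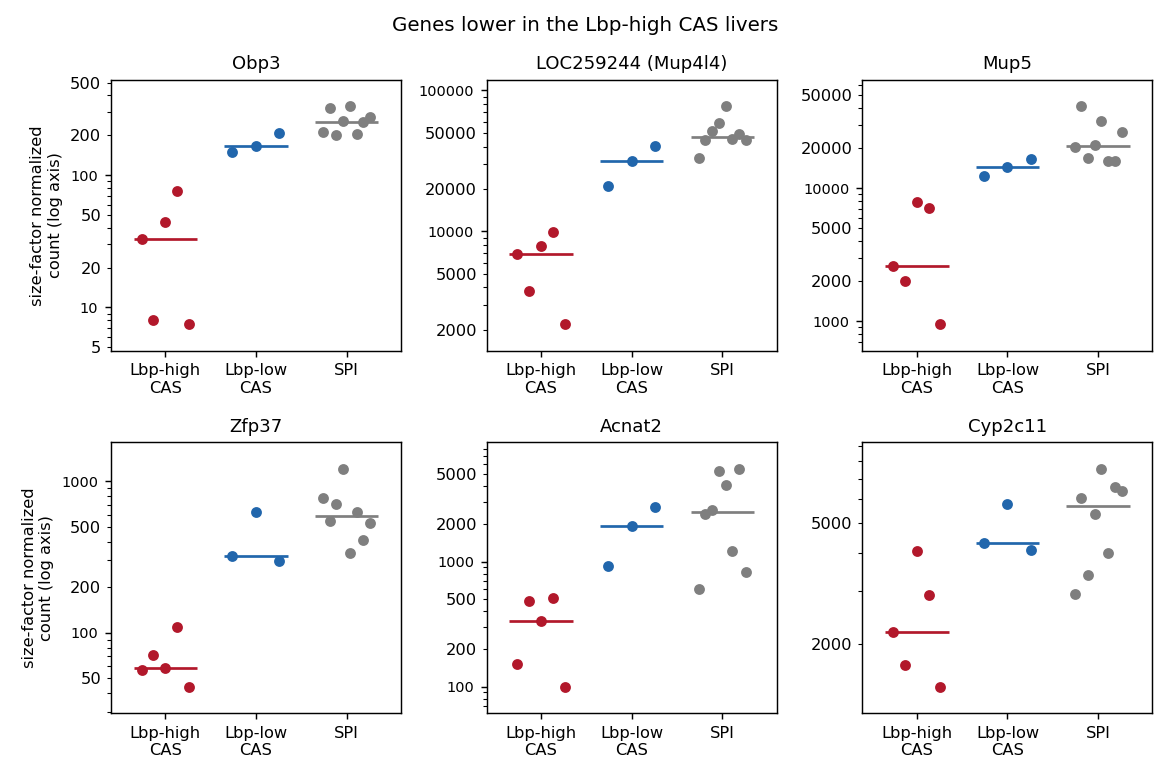
Size-factor normalized counts (log axes) of 6 genes that were lower in Lbp-high livers, with Lbp-high CAS, Lbp-low CAS and SPI livers from left to right and a line at each group's median. Obp3 was 7.44 to 75.6 in Lbp-high livers, 150.0 to 209 in Lbp-low livers and 201 to 333 in SPI livers.

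Of the 22 growth hormone and sex dependent genes, 6 lay below without overlap (Cyp2c11, Sult2a1, Mup5, LOC259244, Obp3 and Rgn), each by at least 1.5-fold, and 1 above (Cyp3a2), with a median of -0.30 that stayed negative under every alternative. Cyp2c11, the main male-specific P450 of rat liver, chosen for mention after its values were seen, was 2197, 1704, 4046, 2896 and 1445 in Lbp-high livers and 4306, 5765 and 4095 in Lbp-low livers, a difference of -1.02 (SE 0.31). Cyp3a18 was 2439, 2109, 2063, 6342 and 1009 in Lbp-high livers and 3054, 7784 and 6259 in Lbp-low livers with overlap through CAS 5 (-1.19, SE 0.59). Not every male-predominant gene was lower, since Cyp3a2, a P450 that is male-predominant in the rat, was 3844, 7007, 7313, 4226 and 3366 in Lbp-high livers and 2203, 2167 and 2992 in Lbp-low livers (1.01, SE 0.28).

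Acnat2, an acyltransferase that conjugates fatty acids with amino acids, was 152, 485, 335, 514 and 99.2 in Lbp-high livers, against 919.8, 1932 and 2736 in Lbp-low livers (-2.68, SE 0.66). Dhrs7, a short-chain dehydrogenase, was 1067, 2882, 1968, 3013 and 763 in Lbp-high livers and 4411, 6862 and 7995 in Lbp-low livers (-1.88, SE 0.47). The remaining genes of the 12 carry locus numbers in the deposited table. LOC103690101 had the largest negative difference at -3.82 (SE 0.93), with 31.0, 7.27, 1.88, 106 and 11.6 in Lbp-high livers and 155, 315 and 231 in Lbp-low livers, of which CAS 5 was the only Lbp-high liver above 100. Its CAS 3 value was under the 2.42 to 3.05 that a 0 allows in CAS livers. The size of this difference is therefore uncertain, and it ran from -4.51 to -2.89 over the alternatives. LOC103695259 and LOC108348077 were abundant, at 7089 to 21120.5 and 1967 to 7675 in Lbp-high livers and 60735 to 94207 and 17467 to 31619 in Lbp-low livers (-2.37, SE 0.35, and -2.30, SE 0.46). LOC102552977, LOC102548633 (Znf431l in the RefSeq table) and LOC102546541 differed by -2.04 (SE 0.49), -1.88 (SE 0.41) and -1.79 (SE 0.35).

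Drug and steroid metabolizing P450s were split. Of 30 genes 3 lay above (Cyp2c24, Cyp3a2 and Cyp3a62) and 6 below (Cyp2c11, Cyp2d1, Cyp2d3, Cyp2d4, Cyp2d5 and the partner protein Cyb5a), with a median of -0.21 (-0.13 without CAS 3 and -0.11 under quantile normalization). Cyp3a62 was 1066, 1010.0, 1242, 948 and 752 in Lbp-high livers and 428, 606 and 399.7 in Lbp-low livers (1.07, SE 0.22), with SPI livers at 213 to 388 (median 287), whereas Cyp3a9 of the same family was 65.4, 65.4, 49.9, 147 and 54.6 in Lbp-high livers and 125, 297 and 321 in Lbp-low livers with overlap through CAS 5 (-1.69, SE 0.51), with SPI livers at 373 to 776 (median 498). Under the scaling alternatives 3 to 4 members lay above and 3 to 6 below. Of 41 glutathione and antioxidant genes none lay above and 2 below (Mgst1 and Aox1), with a median of 0.03, and the aldehyde oxidase Aox1 was 1147 to 1629 in Lbp-high livers and 1912 to 2250.5 in Lbp-low livers (-0.56, SE 0.11).

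Lipid genes lay in both directions. Of 24 genes of fatty acid and triglyceride synthesis, 1 lay above (Scd2) and 4 below (among them Srebf1, Agpat2 and Dgat2), with a median of -0.06. Srebf1, the transcription factor that drives fatty acid synthesis, was 3826, 3210.1, 2343, 2414 and 2958 in Lbp-high livers and 4109, 4641 and 4635 in Lbp-low livers (-0.62, SE 0.14). Scd2, a stearoyl-CoA desaturase, was 103, 105, 90.4, 144 and 205 in Lbp-high livers and 67.5, 68.2 and 6.10 in Lbp-low livers, a difference of 1.95 (SE 1.11), with CAS 7 far below the other livers. Among 17 lipid droplet genes Cidea and Fabp4 lay above and G0s2 and Fabp1 below, with a median of -0.02. Cidea, a protein that fuses lipid droplets, was 152, 276, 320.2, 182 and 274 in Lbp-high livers, against 78.5, 87.3 and 86.4 in Lbp-low livers (1.46, SE 0.21), and 27.5 to 68.2 (median 53.4) in SPI livers. Fabp1, the fatty acid-binding protein of hepatocytes, was 59714, 46422, 61441, 55370.3 and 33322 in Lbp-high livers and 96312, 86356 and 73122 in Lbp-low livers (-0.76, SE 0.20), and G0s2, an inhibitor of adipose triglyceride lipase, was 1407 to 2085 in Lbp-high livers and 2215 to 3664 in Lbp-low livers (-0.64, SE 0.25).

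In the sterol and bile acid lists, 2 of 20 cholesterol synthesis genes lay above (Sqle and Msmo1), with a median of 0.26 (0.11 without CAS 8). A positive difference was found in 18 of the 20, against 3948 of all 8103 genes compared. Msmo1, a methylsterol oxidase, was 993, 926, 1076, 1171 and 2138 in Lbp-high livers and 842, 684 and 787 in Lbp-low livers (0.64, SE 0.23), and CAS 8 was the highest in both genes. Sqle, squalene epoxidase, at 872, 791, 881, 1184 and 1693 in Lbp-high livers and 791, 455 and 769 in Lbp-low livers, overlapped under quantile and upper-quartile scaling. Of 24 bile acid genes 3 lay below (Amacr, Slc10a1 and Abcg5), with a median of -0.12 (-0.19 without CAS 2), and Amacr, a racemase of bile acid side chains, was 3154, 3712, 3455, 4036 and 3887 in Lbp-high livers and 5313, 5147 and 5645 in Lbp-low livers (-0.56, SE 0.07). Of 29 PPARA targets 3 lay above (Hadha, Acot1 and Vnn1) and 1 below (Etfb), with a median of 0.10. Of 31 genes of glucose metabolism Hk1 lay above (0.84, SE 0.26) and Khk below, with a median of 0.00. Over all genes compared 4.43% lay above and 3.73% below, and nothing is read from this pair of glucose genes.

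Amino acid catabolism was lower in part. Of 20 general hepatocyte genes only Tf lay above, Hpd and Hal lay below, 18 of the 20 had a negative difference, and the median was -0.19 (-0.093 under quantile normalization). Among all 8103 genes compared, 3948 had a positive difference. Hal, histidine ammonia-lyase, was 1224, 1069.8, 1008, 1745 and 1582 in Lbp-high livers, against 2845, 2613 and 3899 in Lbp-low livers (-1.25, SE 0.23), and 3871 to 6219 (median 4531) in SPI livers. Hpd, which degrades tyrosine, was 14728, 14742, 13866, 22353 and 20406 in Lbp-high livers and 25069, 27278 and 30271 in Lbp-low livers (-0.70, SE 0.16), while the hepatocyte markers Alb, Apoa1 and Apob overlapped. Sds, serine dehydratase, was 84.3, 140.5, 19.8, 834 and 744 in Lbp-high livers and 742, 1087 and 999.7 in Lbp-low livers and overlapped (-2.43, SE 1.02), with CAS 1, CAS 2 and CAS 3 low and CAS 5 and CAS 8 near the Lbp-low livers. Of 58 respiratory chain genes none lay above and 7 below (Ndufb10, Ndufs3, Ndufv1, Sdha, Uqcrc1, Cyc1 and Cox4i1), none by 1.5-fold, with a median of -0.11 (-0.07, -0.039 and -0.073 without CAS 2, CAS 4 and CAS 8 in turn), and under the scaling alternatives 2 to 8 lay below.

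The remaining lists had few genes apart, and over all genes compared 4.43% lay above and 3.73% below. Nothing is read from a list whose counts are near those shares. Of 34 lysosomal genes 6 lay above (Ctsd, Lgmn, Manba, Ppt1, Atp6v1b2 and Gpnmb), with a median of 0.15 (0.085 without CAS 8), and Lgmn, legumain, was 1574, 2334, 1751, 1896 and 1644 in Lbp-high livers and 1258, 1309 and 1051 in Lbp-low livers (0.60, SE 0.14). Of 25 iron and heme genes 3 lay above (Tf, Hpx and Hp), with a median of 0.04, and Hamp, the hormone hepcidin, overlapped at 2397, 4938, 6871, 5916 and 1614 in Lbp-high livers and 4872, 5884 and 4613 in Lbp-low livers (-0.43, SE 0.42). Of 44 complement and coagulation genes C5 lay above and Fcna and Fga below (median -0.03), and Fcna, a ficolin, was 114 to 199 in Lbp-high livers and 206 to 262 in Lbp-low livers (-0.71, SE 0.19). Of 26 immediate early and heat shock genes Jun, at 825, 1024, 964, 884 and 754 in Lbp-high livers and 645, 433 and 459.7 in Lbp-low livers (0.81, SE 0.20), and Cryab lay above (median 0.26, and 0.15 without CAS 4), though Cryab overlapped under quantile normalization. Of 29 cell cycle genes Tubb5 alone lay above (0.48, SE 0.12), with a median of 0.20 (0.30, 0.13 and 0.079 without CAS 4, CAS 5 and CAS 7 in turn). Of 37 genes of protein folding Dnajc3 alone lay below (-0.42, SE 0.19), with a median of -0.09, and under quantile normalization Dnajc3 overlapped and the median was 0.011. Of 18 glucocorticoid and fasting genes Cebpd alone lay above (median -0.08). None of 14 clock genes (median 0.26, and 0.14, 0.40 and 0.053 without CAS 2, CAS 5 and CAS 7 in turn) and none of 52 ribosomal protein genes (median -0.01) lay apart. Each of the 12 list medians under 0.1 in size moved by over 1.5 times when 1 liver or another was left out, and 10 of them changed sign. The counts apart also moved with scaling, since under the 3 scalings 1 to 7 complement and coagulation genes lay above, 1 to 3 iron and heme genes lay above, 0 to 2 ribosomal protein genes lay above, 2 to 4 of the proteins lowered in inflammation lay below and 2 to 4 bile acid genes lay below.

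**Figure D5:**
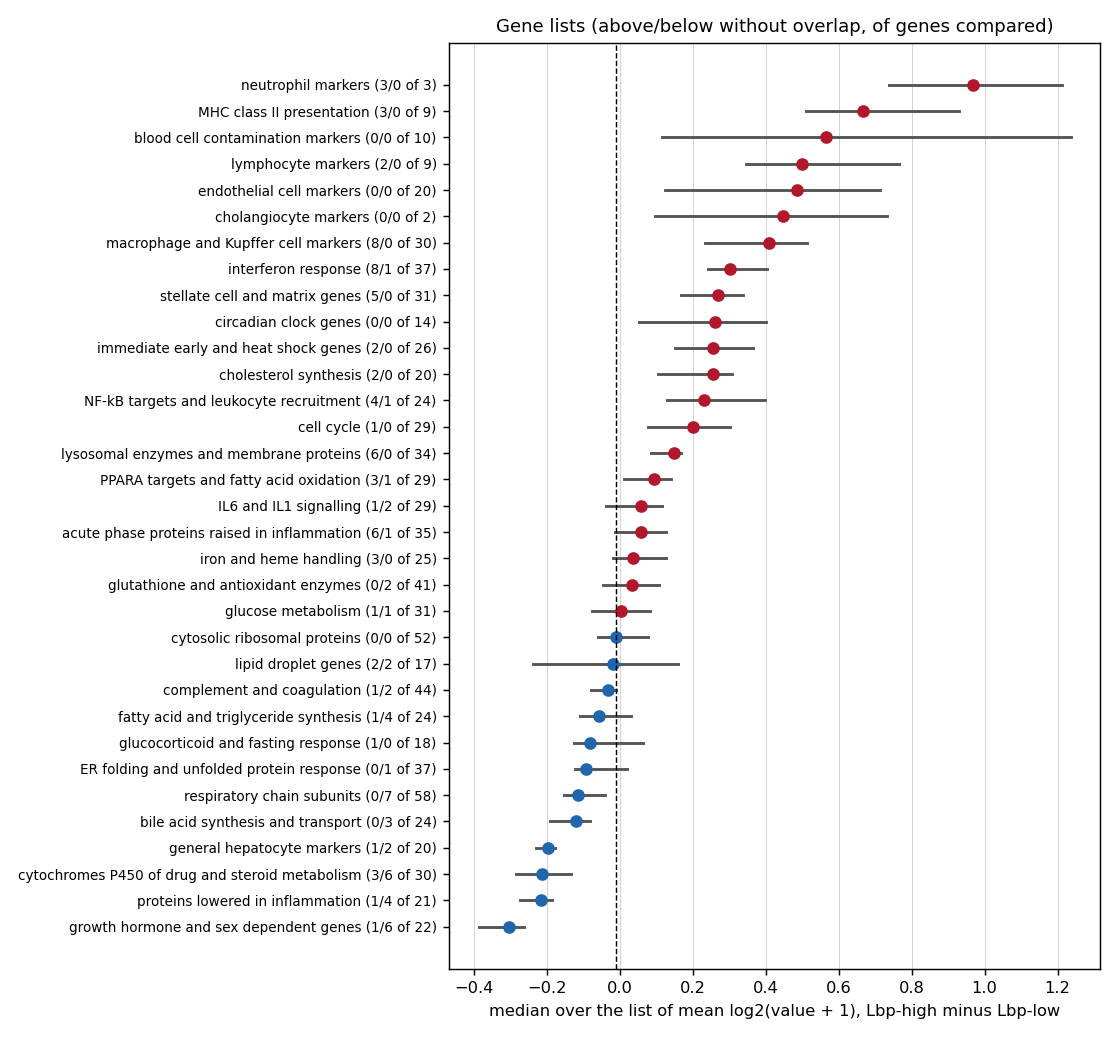
Median difference of mean log2(value + 1), Lbp-high minus Lbp-low, for each of 33 gene lists (points, x axis), with the range over leaving out each CAS liver in turn (lines), the numbers of genes above and below without overlap beside each name, and a dashed line at the median of all genes compared. The medians run from 0.97 for the neutrophil list, of which only 3 genes that other leukocytes also express were compared, to -0.30 for growth hormone and sex dependent genes. Over all genes compared 4.43% lay above and 3.73% below.

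The SPI livers, which the division did not use, lay on both sides of the Lbp-low livers in these genes. Of the 236 higher genes, the SPI median was inside the Lbp-low range in 108 (45.8%), below every Lbp-low liver in 66, within or above the Lbp-high range in 28 and between the groups in 34. Of the 127 lower genes it was inside the Lbp-low range in 51 (40.2%), above every Lbp-low liver in 34, within or below the Lbp-high range in 19 and between them in 23. Over all 8103 genes compared the SPI median was inside the Lbp-low range in 61.8%. Without the 20 higher genes that had no Lbp-low liver at 10 or more, it was inside that range in 99 of 216 (45.8%). These counts are descriptions, since the genes were chosen on the CAS livers, and the diets differ as well.

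Whether a gene goes with Lbp was then asked in the 8 SPI livers alone. The slope of log2(value + 1) on log2 Lbp was fitted for 8008 genes with limma, and 0 genes (0%) passed an adjusted p under 0.05 in either direction, with 158 positive (1.97%) and 149 negative (1.86%) slopes at an unadjusted p under 0.05. edgeR also gave 0, with 145 and 134 at an unadjusted p under 0.05, while DESeq2 called 10 positive and 5 negative slopes. The 5 genes with the smallest p were Sult1c2a, Gpt, Dhrs7, Cyp3a71-ps and Cyp3a2, all with an adjusted p of 0.211 from limma. All 5 were among the slopes that DESeq2 called, with adjusted p from DESeq2 of 2.3e-05 for Sult1c2a to 0.0028 for Dhrs7. Dhrs7, lower in Lbp-high CAS livers, had a slope of -1.58 (SE 0.30), and Cyp3a2, higher in them, had a slope of 2.23 (SE 0.41). Prss8, higher in them but at 0 to 29.7 in SPI livers, had a slope of -5.66 (SE 1.55). Hpd, lower in them, had a slope of 1.03 (SE 0.30). The slopes lean on SPI 3, at an Lbp value of 3387, since the other SPI livers had 1942 to 2387. Without SPI 3 the smallest adjusted p from limma was 0.757, and DESeq2 was not run without it. Gpt, an alanine aminotransferase, had a slope of 1.88 (SE 0.34), and was 297, 605, 276, 1052 and 2708 in Lbp-high CAS livers and 1999.5, 2677 and 1326 in Lbp-low CAS livers with overlap. Of the 236 higher genes 209 were fitted, of which 5 had a positive and 5 a negative slope at an unadjusted p under 0.05, and of the 127 lower genes 126 were fitted, with 3 negative and 9 positive.

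Lcn2 against Lbp in the 8 SPI livers gave Pearson's r of 0.662 (exact permutation p = 0.108, two-sided) and Spearman's rho of 0.0952 (exact permutation p = 0.84), adjusted over the pair to 0.217 and 0.84. In the limma fit the slope of Lcn2 on Lbp was 2.52 (SE 0.90), with an unadjusted p of 0.0143 and an adjusted p of 0.9997. The relation rested on SPI 3, the SPI liver with the highest Lbp (3387) and the highest Lcn2 (370). Without SPI 3 and SPI 6, the livers farthest from the median Lbp, r was -0.301 (exact permutation p = 0.59), and without SPI 3 alone it was -0.473. The spread of Lbp among SPI livers, 1942 to 3387, was narrower than that among CAS livers, 2476 to 9302, which limits what the SPI livers can show.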

How the data were processed

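Total RNA from 16 rat livers (8 CAS, 8 SPI) was isolated with Trizol and sequenced. The signal values analysed hold the authors' reads for each gene after division by a size factor for the library, as deposited, and whole reads were recovered from them for 100% of values (tolerance 0.05). The authors' mean signal, log2 fold changes with standard errors, Wald score and p-value columns, all of SPI against CAS, were deposited in the same table and not used. Rnor_6.0, FastQC and DESeq2 stand in the submitters' processing notes with no version. The methods of the paper instead describe RPM and quantile normalization in CLC Genomics Workbench on assembly version 4, and read length and layout are given differently in the series' design text and the paper. Symbols matched the RefSeq table for GRCr8 in 8010 of 9645 cases, or 8397 with synonyms, 13 names had been turned into dates, and GRCr8 gives the names, neighbours and promoters here but no position for the files.

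CAS livers were split at an Lbp value of 4000, genes were kept if 4 or more of the 8 livers had 10 or more, and log2 values used a pseudocount of 1. The split and the 33 gene lists were chosen with earlier results of these data known. Named were Lbp and Lcn2, the 12 largest positive and 12 largest negative differences among genes without overlap and with a mean of at least 50, up to 4 members of each list with the largest difference and such a mean, the 5 smallest p of the SPI fit, and cell markers. List members without overlap were also named, after their values were seen. Some genes that these rules would name are not reported here. The SPI fit was limma's (trend, robust, two-sided) with Benjamini-Hochberg adjustment at 0.05, tested on simulated data. Each library is 1 rat, so p-values measure the spread between rats. No 2 CAS libraries agreed within sampling noise (smallest chi-square per gene 33.0). Alternatives were quantile, upper-quartile and TMM scaling, filters, pseudocounts, a 2-fold limit, edgeR and DESeq2, leaving out livers, and the pair on lane number 7. Those without CAS 3 and CAS 8, and the lists within lane number 7 and without CAS 2 and CAS 8, were added after seeing the data. Tools were Python 3.11.15, pandas 2.3.3, DESeq2 1.42.0, edgeR 4.0.16 and limma 3.58.1 in R 4.3.3.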

Additional observations from a re-analysis of the deposited data

Results flagged for a closer look

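In 136 groups of values examined, those of the named genes in the 5 Lbp-high livers and of Lbp and Lcn2 in the 8 SPI livers, 5 held a liver whose gap to its neighbour, as a share of the whole range on the log2 scale, was above the 95% limit for an outlier, and chance gives about 1 in 20 such groups. The share was 0.629 for Lbp in SPI 3, the highest SPI liver (3387). In Lbp-high livers it was 0.877 for Dnajc3 in CAS 1, the lowest (4058), 0.751 for Cyp3a9 in CAS 5, the highest (147), 0.72 for Msmo1 in CAS 8, the highest (2138), and 0.716 for LOC102548633 in CAS 8, the lowest (10.7). The cause was not tested for any of them.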

How the results depend on the processing

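Under the 3 scalings, the filters and the pseudocounts, the 4 counts of genes without overlap stayed within 1.5 times the main ones, and of the 236 higher and 127 lower genes 202 and 116 were shared under quantile normalization, which shared the fewest of the 3 scalings. Counts increase by construction when fewer livers have to be separated. Leaving out each CAS liver gave 446 to 634 higher and 384 to 539 lower genes, and at 1.5-fold 276 to 380 higher and 159 to 238 lower, with the largest counts without CAS 4 or CAS 6. They were 740, 696, 416 and 282 in the same order without CAS 2 and CAS 8, and 702, 604, 417 and 215 without CAS 3 and CAS 8, and at 2-fold 117 higher and 58 lower genes were left. Of the counted genes, 193 of 236 and 90 of 127 were also at 1.5-fold between CAS 2 and CAS 7, on 1 lane number. The direction within this pair was fixed by the choice of the genes, so these counts are no check on lane. Of the 64 named genes without overlap, Sqle, Dnajc3 and Cryab overlapped under a scaling. None changed sign under any setting run. Leaving out livers or changing the pseudocount could not change it, since these genes were chosen for groups that do not overlap.

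List medians moved by more than the spread between livers as follows. Under quantile normalization the acute phase list was 0.15, protein folding 0.0107 and complement 0.0588. Leaving out each liver gave 0.13 to 0.40 for NF-kB targets, -0.24 to 0.16 for lipid droplets, -0.19 to -0.0803 for bile acids, -0.0465 to 0.11 for glutathione, -0.0184 to 0.13 for iron, -0.12 to 0.0203 for protein folding and -0.078 to -0.0085 for complement. Without CAS 2 and CAS 8 NF-kB targets were 0.44, bile acids -0.21 and protein folding -0.0029, and without CAS 3 and CAS 8 NF-kB targets were 0.45, cell cycle 0.44 and protein folding -0.0026. Between CAS 2 and CAS 7 alone the medians were 1.64 for MHC class II, 0.94 for macrophages, 1.79 for neutrophils, 1.28 for lymphocytes, 1.62 for endothelium, 0.80 for stellate cells, 1.67 for bile ducts, 0.26 for PPARA targets, 0.35 for glucose, -0.0285 for P450s, 0.21 for glutathione, 0.48 for immediate early genes, 1.19 for the clock, -0.48 for growth hormone and sex dependent genes and 0.30 for lysosomes, and CAS 7 is the liver with the lowest endothelial values. The cause was not tested.

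In SPI livers the fit gave 0 calls except with DESeq2, 10 positive and 5 negative, and without SPI 2, 2 positive, and over leaving out each liver the counts were 0 to 2 positive and 0 to 0 negative. For Lcn2 against Lbp, leaving out each SPI liver gave r of -0.473 to 0.792 and rho of -0.357 to 0.357, the lowest without SPI 3 in both, and without SPI 3 and SPI 6 r was -0.301 and rho -0.0286. No paired analysis was possible because Lbp-high and Lbp-low livers are all CAS and share no replicate number, and no comparison of the diets was fitted. Genes near 10 are limited by depth.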
